A study of Mus musculus with 12 samples.

Results

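The epidermal growth factor (EGF) receptor and the hepatocyte growth factor (HGF) receptor are the main growth factor receptors of hepatocytes, and 10 genes that encode these receptors, their close relatives and their ligands were followed here in mouse liver. Members were chosen by symbol, so that a row of the count table belonged to the group when its symbol was *Egfr*, *Erbb2*, *Erbb3*, *Met*, *Hgf*, *Tgfa*, *Btc*, *Hbegf*, *Ereg* or *Areg*, and all 10 were found among the 24411 genes listed. Whole liver RNA was sequenced from mice of 3 genotypes at 3 months of age, with 3 mice per genotype. The cont. mice carried floxed *Atg7* alleles (*Atg7*flox/flox) without Cre, and every mouse compared here was *Atg7*flox/flox. The *Atg7*-KO mice carried in addition Alb-*Cre*, a Cre recombinase driven by the albumin promoter, which deletes the autophagy gene *Atg7* in hepatocytes. The *Atg7*-KO;*p62T352A* mice were *Atg7*flox/flox;Alb-*Cre* and homozygous for *p62T352A*, a knock-in of the autophagy receptor p62 made so that the NRF2 inhibitor KEAP1 is not held in p62 bodies. Mice with *p62T352A* and no Cre are not analysed here, so that what *p62T352A* does in the presence of *Atg7* cannot be told apart. The comparisons ask how the receptor and ligand transcripts differ when hepatocytes lack autophagy, and which of those differences are found when p62 cannot retain KEAP1.

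EGFR, ERBB2 and ERBB3 are receptor tyrosine kinases of one family that signal as pairs. EGFR binds TGFα, betacellulin, HB-EGF, epiregulin and amphiregulin, which are made as membrane-bound precursors and released by proteases; ERBB2 has no known ligand of its own and ERBB3, whose kinase activity is weak, binds neuregulins and works through its partners. MET is the only known receptor for HGF, which is secreted as an inactive chain by non-parenchymal cells, mainly stellate cells and also sinusoidal endothelial cells, and both receptor systems drive hepatocyte survival and proliferation, for instance in the regenerating liver.

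The 9 libraries held between 9671073 and 23285134 counts, the deepest being that of cont. mouse 1. *Atg7* itself was at 46.4, 44.2 and 55.4 normalized CPM (counts per 1000000 of the library's effective size) in cont. mice 1, 2 and 3, at 10.1, 9.57 and 12 in the *Atg7*-KO mice, and at 29.7, 27.4 and 29.5 in the *Atg7*-KO;*p62T352A* mice. The last group was thus lower than cont. (log2 fold change -0.75 ± 0.16 (SE), adjusted p = 0.0206) but higher than *Atg7*-KO (1.45 ± 0.17, adjusted p = 0.000164), with no overlap among the 3 groups. Counts over the whole gene do not show whether the floxed part was deleted. By immunoblot, the study found ATG7 protein almost absent from *Atg7*-KO livers, with or without the p62 mutation. The *Atg7* transcript moved with every difference between *Atg7*-KO and *Atg7*-KO;*p62T352A* given below, where its part was not tested. *Sqstm1*, the gene of p62, was at 314 to 505 CPM for cont., 871 to 960 for *Atg7*-KO and 497 to 626 for *Atg7*-KO;*p62T352A*, and rose in *Atg7*-KO (1.24 ± 0.22, adjusted p = 0.00189). Liver markers were abundant in every mouse. The summed level of 10 hepatocyte markers was 77309 to 135931 CPM for cont., 39986 to 42794 for *Atg7*-KO and 114318 to 131470 for *Atg7*-KO;*p62T352A*. Among the markers of 7 cell types that were in the count table, each held more than 3 counts in at least 1 mouse. Of 6 neutrophil markers 5 were in the table and 4 had enough counts to be tested, as had 7 of 8 cholangiocyte markers. The mice numbered 1 in each genotype had 7 to 28 counts of *Xist*, the RNA that silences an X chromosome in females, against 8578 to 18335 in the other 6 mice, and the labels do not give the sex.

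Of the 10 members 9 had enough counts to be tested, and *Areg* did not. *Ereg* passed the count filter only through its level in the *Atg7*-KO mice, so a difference there was required for it to be tested at all, and the counts of members below are descriptions. A gene was called when the adjusted p of edgeR's quasi-likelihood test was under 0.05 and the fold change over 1.5. Between *Atg7*-KO and cont. 7 of the 9 tested members were called, beside 43.7% of the 13922 genes tested. The 4 tested EGFR ligands and *Hgf* were higher in *Atg7*-KO, where 21.6% of all genes were, and *Egfr* and *Erbb3* were lower, as were 22.1% of all genes. Without cont. mouse 2 the count was 4, since *Ereg*, *Hbegf* (adjusted p = 0.0618) and *Hgf* (0.197) were no longer called. Between *Atg7*-KO;*p62T352A* and *Atg7*-KO 7 of 9 were called, beside 51.0% of all genes, with *Egfr* higher (24.7% of all genes) and 6 members lower (26.2%). Between *Atg7*-KO;*p62T352A* and cont. 2 of 9 were called, *Erbb3* and *Hgf*, beside 11.6% of all genes. Both were lower, as were 5.34% of all genes, and no member was called higher, as were 6.25%. Over the 9 members, the log2 fold changes had medians of 1.04, -1.55 and -0.34 in these comparisons, against -0.032, 0.002 and 0.004 over all genes tested. The groups did not overlap for 55.5%, 73.2% and 26.6% of all genes tested in these comparisons. The separations of single members given below are to be read beside these shares. The comparisons share mice with each other, so that a high or low *Atg7*-KO group gives opposite signs in the first and the second. In bulk liver RNA, fewer or more cells of a type and less or more RNA per cell cannot be told apart.

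**Figure D1:**
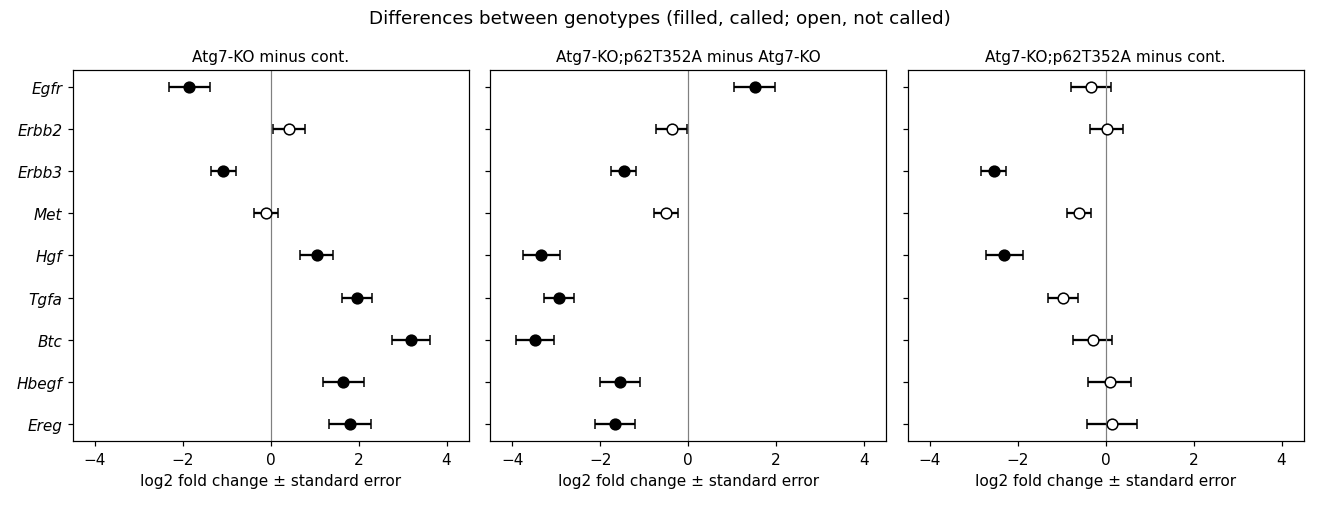
Log2 fold change with its standard error (horizontal axis) of the 9 tested genes (rows) in the 3 comparisons between genotypes (panels), with filled points for called genes. The 4 EGFR ligands and *Hgf* lie right of 0 in the first panel and left of it in the second, *Egfr* lies on the opposite sides, and *Erbb3* is left of 0 in all 3 panels.

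*Tgfa*, which encodes transforming growth factor α, was the most abundant EGFR ligand transcript. It lies on chromosome 6 (GRCm38 chr6:86195223-86275719, + strand). Its level was 22, 11.8 and 9.34 CPM in cont. mice 1, 2 and 3, 50.1, 63.4 and 57.4 CPM in *Atg7*-KO and 5.78, 10.4 and 6.07 CPM in *Atg7*-KO;*p62T352A*. The lowest *Atg7*-KO mouse was above every mouse of the other groups, and cont. mouse 1 was the highest of the rest. *Tgfa* rose in *Atg7*-KO by a log2 fold change of 1.97 ± 0.34 (SE) against cont. (3.93-fold, adjusted p = 0.00143) and was lower in *Atg7*-KO;*p62T352A* than in *Atg7*-KO by 7.69-fold (-2.94 ± 0.35, adjusted p = 0.000206). Its level in *Atg7*-KO;*p62T352A* was 7.41 ± 2.57 CPM (SD, n = 3), with a log2 fold change of -0.97 ± 0.34 against cont. that was not called (adjusted p = 0.0935). DESeq2 called that difference (adjusted p = 0.0412), as did the main test without cont. mouse 3 (0.0469).

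*Btc* encodes betacellulin, a ligand of EGFR and ERBB4, and showed the largest fold changes of the members in both comparisons with *Atg7*-KO. The gene lies at GRCm38 chr5:91357261-91402994 on the - strand. Its level was 2.69, 1.32 and 0.55 CPM for cont., 17.8, 13.6 and 12.9 CPM for *Atg7*-KO and 1.57, 1.05 and 1.31 CPM for *Atg7*-KO;*p62T352A*, with 5 to 47 counts per mouse behind the low groups and 302 to 369 behind *Atg7*-KO. The *Atg7*-KO mice did not overlap with the others, as was so for 55.5% of all genes against cont. and 73.2% against *Atg7*-KO;*p62T352A*. *Btc* rose by 9.12-fold in *Atg7*-KO (log2 fold change 3.19 ± 0.43 (SE), adjusted p = 0.000393) and was 11.2-fold lower in *Atg7*-KO;*p62T352A* than in *Atg7*-KO (-3.49 ± 0.43, adjusted p = 0.000239). The ranges of *Atg7*-KO;*p62T352A* and cont. overlapped. The log2 fold change between them was -0.30 ± 0.45 (adjusted p = 0.712) and turned to 0.45 without cont. mouse 1 and to 0.30 without the mice numbered 1.

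The sequences upstream of *Tgfa* and *Btc*, the EGFR ligand genes with the largest fold changes in both comparisons with *Atg7*-KO, are shown because these genes rose and fell together. Each is the 250 bases before the RefSeq start of transcription (GRCm38.p6), written 5′ to 3′ on the strand of the gene, with capitals marking a GC box (GGGCGG on either strand). The windows are chr6:86194972-86195221 for *Tgfa* and chr5:91402995-91403244 for *Btc*.
Tgfa: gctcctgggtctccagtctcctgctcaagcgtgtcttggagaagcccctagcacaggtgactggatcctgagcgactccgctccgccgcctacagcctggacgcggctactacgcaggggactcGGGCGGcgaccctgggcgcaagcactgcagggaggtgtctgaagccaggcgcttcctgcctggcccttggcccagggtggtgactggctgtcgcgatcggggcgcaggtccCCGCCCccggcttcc
Btc: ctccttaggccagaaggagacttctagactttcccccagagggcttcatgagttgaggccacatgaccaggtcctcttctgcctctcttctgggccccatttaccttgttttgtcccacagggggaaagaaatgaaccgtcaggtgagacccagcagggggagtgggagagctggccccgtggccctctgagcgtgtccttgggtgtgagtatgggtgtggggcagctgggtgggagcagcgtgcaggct
The *Tgfa* window held 2 GC boxes, 126 and 15 bases before the start, and the *Btc* window held none. Neither held the antioxidant response element core TGACNNNGC bound by NRF2, the AP-1 site TGANTCA or the TATA box TATAAA on either strand. Over the 32851 windows of that length in RefSeq, 32.7% held a GC box, 10.2% the antioxidant response element core, 6.75% the AP-1 site and 12.4% the TATA box. RefSeq windows were searched for 7 of the 10 members, without *Erbb3*, *Hbegf* and *Ereg*, and those letters are a description of these windows only.

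*Hbegf* encodes heparin-binding EGF-like growth factor and lies at GRCm38 chr18:36504927-36515805 (- strand). Its level was 0.974, 1.23 and 2.75 CPM for cont., 3.63, 5.88 and 5.5 CPM for *Atg7*-KO and 0.857, 1.75 and 2.48 CPM for *Atg7*-KO;*p62T352A*. Every *Atg7*-KO mouse was above every other mouse, and the other groups overlapped. *Hbegf* rose by 3.13-fold in *Atg7*-KO (log2 fold change 1.65 ± 0.46 (SE), adjusted p = 0.0166) and was 2.93-fold lower in *Atg7*-KO;*p62T352A* than in *Atg7*-KO (-1.55 ± 0.45, adjusted p = 0.0161). The rise was not called without cont. mouse 2 (adjusted p = 0.0618), *Atg7*-KO mouse 2 (0.0584) or *Atg7*-KO mouse 3 (0.0532). The fall was not called without *Atg7*-KO mouse 2 (0.0575), *Atg7*-KO mouse 3 (0.0507) or *Atg7*-KO;*p62T352A* mouse 1 (0.0535). Between *Atg7*-KO;*p62T352A* and cont. the log2 fold change was 0.09 ± 0.49 (adjusted p = 0.924).

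*Ereg*, the epiregulin gene (GRCm38 chr5:91074622-91093646, + strand), was near the limit of detection, with 5, 2 and 3 counts in cont. mice 1, 2 and 3, 25, 25 and 15 in *Atg7*-KO and 2, 6 and 5 in *Atg7*-KO;*p62T352A*. The *Atg7*-KO mice held more counts than any other mouse. On the normalized scale *Ereg* was 0.268 ± 0.072 CPM (SD, n = 3) for cont., 0.959 ± 0.291 for *Atg7*-KO and 0.296 ± 0.141 for *Atg7*-KO;*p62T352A*. The log2 fold change was 1.80 ± 0.48 (SE) for *Atg7*-KO against cont. and -1.66 ± 0.46 for *Atg7*-KO;*p62T352A* against *Atg7*-KO. Since *Ereg* passed the count filter only through the *Atg7*-KO mice, these values are a description and no p-value is given. Both calls made for it were lost without some of the mice, *Atg7*-KO mouse 1 among them. *Areg*, the amphiregulin gene, is a neighbour of *Ereg* at GRCm38 chr5:91139599-91148432 (+ strand). It held 0, 0 and 1 counts for cont., 4, 4 and 3 for *Atg7*-KO and 0, 1 and 1 for *Atg7*-KO;*p62T352A*. Summed over the mice, the ratio of *Areg* counts per total count was 9.25 for *Atg7*-KO against cont. (95% exact interval 1.34 to 398) and 0.191 for *Atg7*-KO;*p62T352A* against *Atg7*-KO (0.0206 to 0.875). These intervals cover counting error between pooled libraries and not the spread between mice. With no filter on low counts the log2 fold change of *Areg* was 2.27 for *Atg7*-KO against cont. and was not called (adjusted p = 0.168).

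Per kilobase of the longest transcript, which makes levels comparable between genes, the 5 EGFR ligands summed to 5.94, 3.41 and 3.32 CPM per kb for cont., 17.2, 19.8 and 18 for *Atg7*-KO and 2, 3.32 and 2.66 for *Atg7*-KO;*p62T352A*. Each *Atg7*-KO mouse held more EGFR ligand transcript than any mouse of the other genotypes. *Tgfa* made up 62.1% to 81.9% of the sum for cont., 64.3% to 70.7% for *Atg7*-KO and 50.5% to 69.1% for *Atg7*-KO;*p62T352A*. The share of *Btc* was 4.11% to 11.3% in cont. and 17.1% to 25.8% in *Atg7*-KO, which did not overlap, and 7.87% to 19.5% in *Atg7*-KO;*p62T352A*, which overlapped both. *Ereg* and *Areg* each stayed minor in all mice, neither alone exceeding 3.07%. Markers of other cells also differed between the genotypes. Of the 7 tested cholangiocyte markers 6 were called higher than cont. in *Atg7*-KO and 5 lower in *Atg7*-KO;*p62T352A* than in *Atg7*-KO, 4 were higher in *Atg7*-KO;*p62T352A* than in cont., and the summed level of the list was 33.6 to 51.8 CPM for cont., 832 to 1028 for *Atg7*-KO and 182 to 267 for *Atg7*-KO;*p62T352A*. Most of this sum was *Spp1*, with means of 33.8, 871 and 172 CPM in the 3 genotypes, so the sum mainly follows that gene. Of 11 macrophage and Kupffer cell markers 8 were called higher and 1 lower than cont. in *Atg7*-KO, with sums of 367 to 541, 1531 to 1641 and 268 to 572 CPM in the 3 genotypes. The part of these cells in the ligand levels was not tested.

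**Figure D2:**
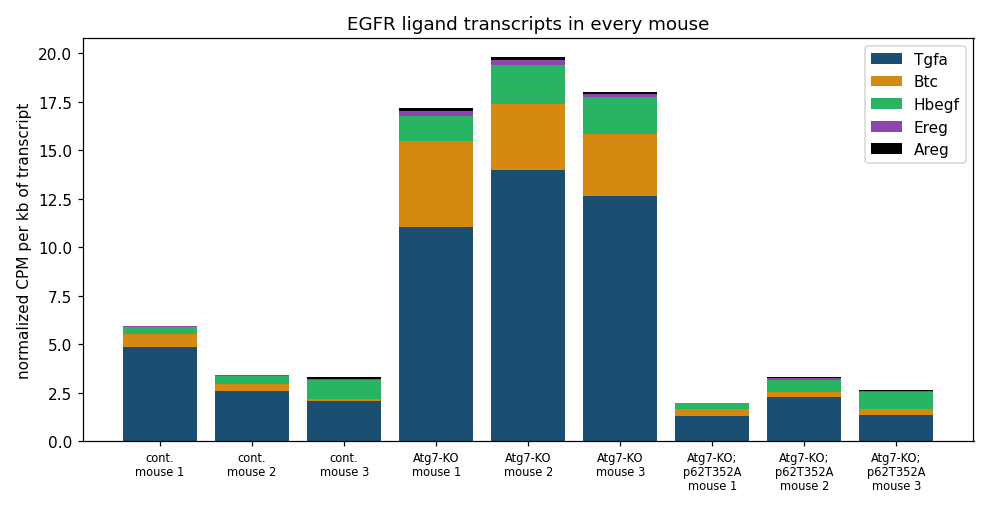
Stacked bars of the 5 EGFR ligand transcripts (normalized CPM per kb of the longest transcript, vertical axis) in each of the 9 mice. The 3 *Atg7*-KO mice reach 17.2 to 19.8 CPM per kb and the other 6 mice 2 to 5.94, and *Tgfa* is the largest segment in every bar.

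*Egfr*, the receptor for these ligands, moved against them. It lies at GRCm38 chr11:16752203-16918158 (+ strand), and its level was 417, 211 and 101 CPM in cont. mice 1, 2 and 3, 90.1, 59.1 and 53.1 CPM in *Atg7*-KO and 190, 241 and 143 CPM in *Atg7*-KO;*p62T352A*. All *Atg7*-KO mice were below all others, while the cont. mice spread from 101 to 417 CPM and enclosed the *Atg7*-KO;*p62T352A* mice. *Egfr* fell in *Atg7*-KO by 3.61-fold (log2 fold change -1.85 ± 0.46 (SE), adjusted p = 0.00936) and was 2.84-fold higher in *Atg7*-KO;*p62T352A* than in *Atg7*-KO (1.51 ± 0.46, adjusted p = 0.0191). The fall was called in every one of the 20 alternatives. The difference between *Atg7*-KO;*p62T352A* and *Atg7*-KO was not called without *Atg7*-KO mouse 2 (adjusted p = 0.0686), *Atg7*-KO mouse 3 (0.0729) or *Atg7*-KO;*p62T352A* mouse 2 (0.0643), nor when a fold change over 1.5 was itself the hypothesis tested (0.054). Against cont. the *Atg7*-KO;*p62T352A* mice had a log2 fold change of -0.34 ± 0.45 (adjusted p = 0.66), which turned to 0.30 without cont. mouse 1. Hepatocyte markers moved with *Egfr*: 8 of 10 were called lower than cont. in *Atg7*-KO and 8 of 10 higher in *Atg7*-KO;*p62T352A* than in *Atg7*-KO, and their part in the level of *Egfr* was not tested.

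The 250 bases before the RefSeq start of *Egfr* (GRCm38.p6 chr11:16751953-16752202, + strand) are given for comparison with the ligand genes, with the capitals marking the GC box on the other strand, 9 bases before the start.
Egfr: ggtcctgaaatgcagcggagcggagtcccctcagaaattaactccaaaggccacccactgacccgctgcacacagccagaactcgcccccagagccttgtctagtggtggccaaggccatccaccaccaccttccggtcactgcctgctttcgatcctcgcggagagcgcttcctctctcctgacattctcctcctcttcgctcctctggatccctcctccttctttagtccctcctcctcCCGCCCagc
None of the other motifs searched was found in this window.

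*Erbb3*, a receptor of neuregulins and a partner of the other ERBB receptors, decreased at both steps. It lies at GRCm38 chr10:128567523-128589652 (- strand). Its level was 61.1, 63.6 and 87.5 CPM for cont., 32.5, 37.1 and 30.6 CPM for *Atg7*-KO and 18, 9.25 and 8.94 CPM for *Atg7*-KO;*p62T352A*, so that none of the 3 groups overlapped. *Erbb3* fell by 2.11-fold in *Atg7*-KO (log2 fold change -1.08 ± 0.28 (SE), adjusted p = 0.0109), was a further 2.77-fold lower in *Atg7*-KO;*p62T352A* than in *Atg7*-KO (-1.47 ± 0.28, adjusted p = 0.0022) and 5.86-fold lower than in cont. (-2.55 ± 0.29, adjusted p = 0.00343). Both comparisons of *Atg7*-KO;*p62T352A* were called in all 20 alternatives. Of 10 hepatocyte markers 1 was called lower and 0 higher in *Atg7*-KO;*p62T352A* than in cont. Of 10 endothelial markers 6 were called lower in *Atg7*-KO;*p62T352A* than in cont. and 6 lower than in *Atg7*-KO. Between *Atg7*-KO and cont. the calls were mixed, with *Lyve1* and *Pecam1* higher, *Ptprb* and *Stab2* lower and 6 markers not called. The sum of the 10 markers had the order of *Erbb3*: cont. mice held 547 to 740 CPM, *Atg7*-KO mice 485 to 512 and *Atg7*-KO;*p62T352A* mice 342 to 370. The part of these cells in the level of *Erbb3* was not tested. *Erbb2* encodes the ligandless partner of EGFR and ERBB3 and lies at GRCm38 chr11:98412470-98437716 (+ strand). It was at a low level throughout, 1.15, 1.89 and 3.19 CPM for cont., 2.81, 2.55 and 2.69 CPM for *Atg7*-KO and 1.5, 2.03 and 2.61 CPM for *Atg7*-KO;*p62T352A*, and the ranges of all genotypes overlapped. Its log2 fold change was 0.41 ± 0.37 (adjusted p = 0.39) for *Atg7*-KO against cont., -0.38 ± 0.36 (0.391) for *Atg7*-KO;*p62T352A* against *Atg7*-KO and 0.02 ± 0.38 (0.978) for *Atg7*-KO;*p62T352A* against cont., and no difference was detectable at 20 to 63 counts per mouse. The protein-coding gene *Mien1* overlaps *Erbb2* on the opposite strand, as annotated antisense genes do *Egfr* and *Ereg*, and whether counting used the strand is not given in the sources used here.

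**Figure D3:**
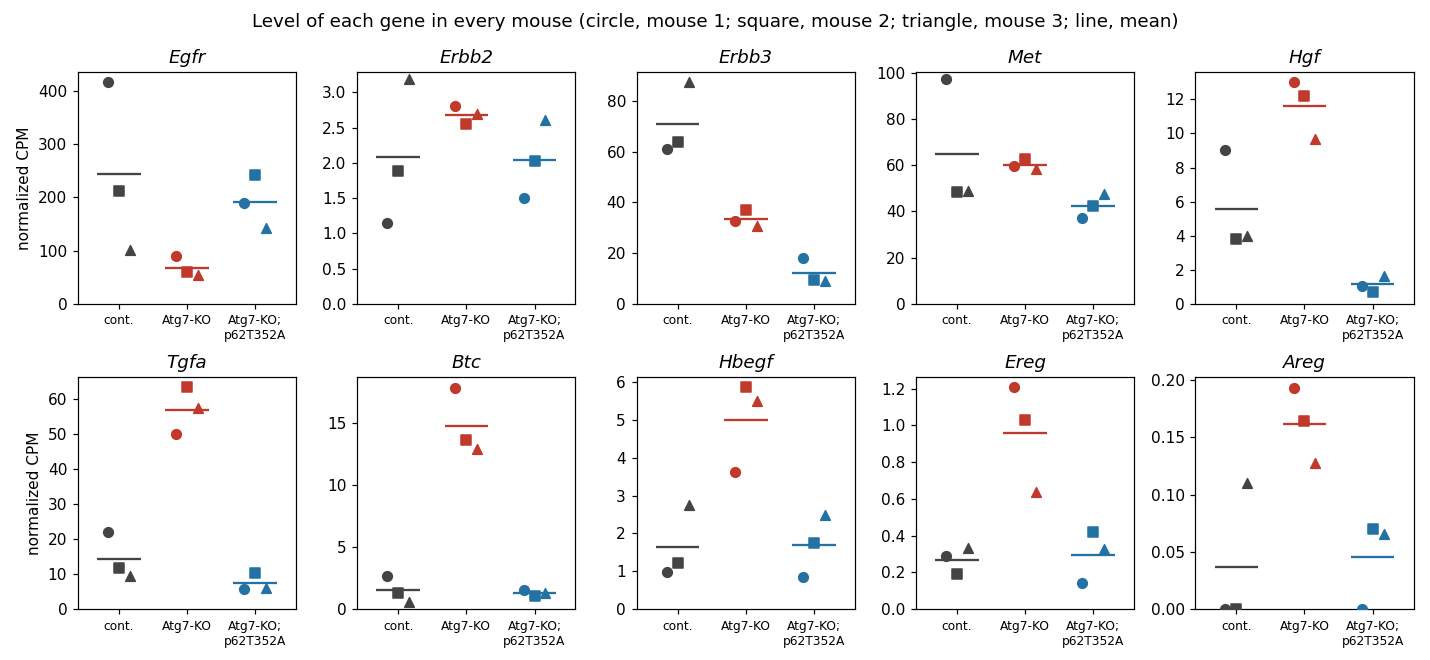
Normalized CPM (vertical axes, each from 0) of the 10 genes in every mouse by genotype, with a line at the mean of 3 mice. The *Atg7*-KO mice are highest for the ligands and lowest for *Egfr*, *Erbb3* steps down from cont. to *Atg7*-KO;*p62T352A*, and cont. mouse 1 stands above the other cont. mice for *Egfr*, *Met*, *Hgf*, *Tgfa* and *Btc*.

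*Hgf* encodes the only known ligand of MET, and it was the ligand called lower than cont. in *Atg7*-KO;*p62T352A*. The gene lies at GRCm38 chr5:16553495-16620152 (+ strand). Its level was 9, 3.78 and 3.96 CPM for cont., 13, 12.2 and 9.68 CPM for *Atg7*-KO and 1.07, 0.7 and 1.63 CPM for *Atg7*-KO;*p62T352A*, with 10 to 25 counts per mouse in the last group. The groups did not overlap, although cont. mouse 1 came close to the lowest *Atg7*-KO mouse. *Hgf* was 10.1-fold lower in *Atg7*-KO;*p62T352A* than in *Atg7*-KO (log2 fold change -3.34 ± 0.42 (SE), adjusted p = 0.000254) and 4.95-fold lower than in cont. (-2.31 ± 0.42, adjusted p = 0.0114), both in all 20 alternatives. The rise in *Atg7*-KO against cont. was 2.05-fold (1.04 ± 0.37, adjusted p = 0.043). That call was lost in 8 of the 20 alternatives, among them those without cont. mouse 2 (adjusted p = 0.197), cont. mouse 3 (0.125), *Atg7*-KO mouse 1 (0.12), 2 (0.108) or 3 (0.0661) and *Atg7*-KO;*p62T352A* mouse 1 (0.0599), while the log2 fold change stayed between 0.72 and 1.58.

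Markers of the cells known to make *Hgf* were examined beside it. Of 12 stellate cell markers 8 were called higher and 1 lower than cont. in *Atg7*-KO, 1 higher and 7 lower in *Atg7*-KO;*p62T352A* than in *Atg7*-KO, and 2 higher and 0 lower in *Atg7*-KO;*p62T352A* than in cont. Their summed level was 462 to 609 CPM for cont., 1049 to 1197 for *Atg7*-KO and 592 to 834 for *Atg7*-KO;*p62T352A*. The 2 higher than cont. in *Atg7*-KO;*p62T352A* were *Dcn* (means of 162 CPM in cont. and 283 in *Atg7*-KO;*p62T352A*) and *Col3a1* (23.8 and 58.3). Markers not called lay on both sides, such as *Rgs5* (10.6 and 4.02) and *Reln* (47.9 and 56.2), so the sum does not stand for each marker. Of 10 endothelial markers 6 were called lower and 0 higher in *Atg7*-KO;*p62T352A* than in cont., with sums of 547 to 740 CPM for cont., 485 to 512 for *Atg7*-KO and 342 to 370 for *Atg7*-KO;*p62T352A*. The part of stellate and endothelial cells in the level of *Hgf* was not tested.

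**Figure D4:**
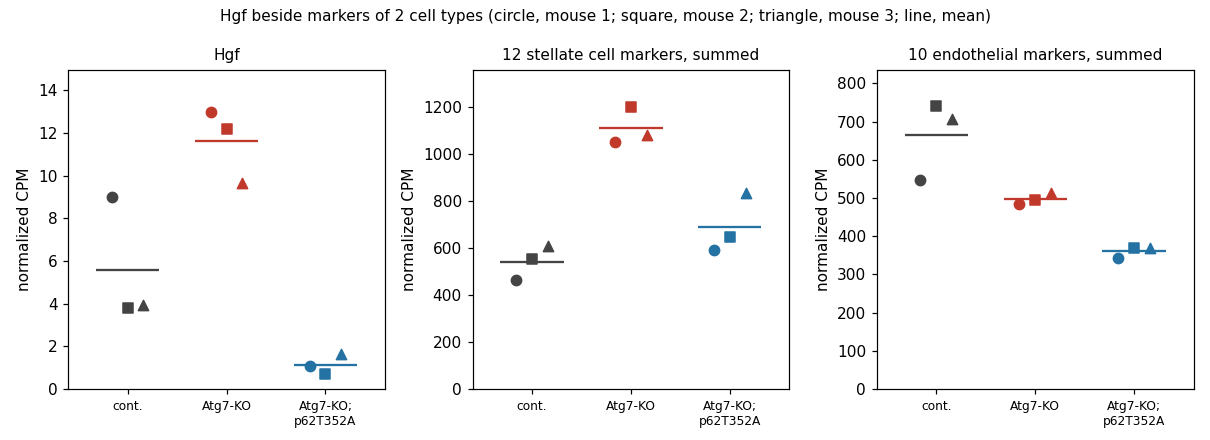
*Hgf* (left), the sum of 12 stellate cell markers (middle) and the sum of 10 endothelial markers (right) in normalized CPM (vertical axes, each from 0) in every mouse, with a line at the mean of 3 mice. In *Atg7*-KO;*p62T352A*, *Hgf* (0.7 to 1.63 CPM) lies below cont. (3.78 to 9), the stellate sum (592 to 834) does not lie below it (462 to 609), and the endothelial sum (342 to 370) does (547 to 740). The stellate sum includes *Dcn* and *Col3a1*, which were called higher than cont. there, and single stellate markers lay on both sides.

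The 250 bases before the RefSeq start of *Hgf* (GRCm38.p6 chr5:16553245-16553494, + strand) are shown because its order across the genotypes differed from that of the EGFR ligands, and no motif of those searched was found in them.
Hgf: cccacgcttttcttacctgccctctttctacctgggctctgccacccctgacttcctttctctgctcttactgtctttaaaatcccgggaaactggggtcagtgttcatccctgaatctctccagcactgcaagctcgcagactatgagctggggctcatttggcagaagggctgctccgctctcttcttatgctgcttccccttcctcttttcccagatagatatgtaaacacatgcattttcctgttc

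*Met*, the receptor of HGF (GRCm38 chr6:17463800-17573980, + strand), was called in none of the comparisons. Its level was 97.3, 48.4 and 48.7 CPM for cont., 59.4, 62.5 and 58.5 CPM for *Atg7*-KO and 37.3, 42.4 and 47.6 CPM for *Atg7*-KO;*p62T352A*. Cont. mouse 1 was the highest of the 9 mice, and the *Atg7*-KO;*p62T352A* mice were the lowest. The log2 fold change was -0.11 ± 0.27 (SE, adjusted p = 0.755) for *Atg7*-KO against cont. and turned to 0.31 without cont. mouse 1. It was -0.50 ± 0.27 for *Atg7*-KO;*p62T352A* against *Atg7*-KO (adjusted p = 0.136) and -0.61 ± 0.27 against cont. (adjusted p = 0.168), comparisons in which the groups did not overlap, as was the case for 73.2% and 26.6% of all genes tested.

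Among the 7 members whose upstream window was searched, only that of *Met* matched the antioxidant response element core. The 29 bases around the match (GRCm38.p6 chr6:17463891-17463919, + strand) are shown with the match in capitals. The match reads TGACNNNGC on the other strand, overlaps a match of the AP-1 site TGANTCA and begins 56 bases before the RefSeq start, which lies within the gene as GENCODE annotates it.
Met: ctgttgcccgGCTGAGTCAcgggccgggc
Windows with the antioxidant response element core made up 10.2% of all windows.

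The order of the levels per kilobase differed between genotypes. In cont. it was *Egfr* (23.8 ± 15.7 CPM per kb (SD, n = 3)), *Erbb3* (11.8 ± 2.42), *Met* (9.52 ± 4.13), *Tgfa* (3.18 ± 1.48), *Hgf* (1.61 ± 0.854), *Hbegf*, *Erbb2*, *Btc*, *Ereg* and *Areg*. The ranges of *Egfr* and *Erbb3*, of *Erbb3* and *Met* and of *Tgfa* and *Hgf* overlapped in cont., while each of these 3 receptors was above *Tgfa* in all mice. In *Atg7*-KO *Tgfa* (12.6 ± 1.47) came first, above *Met* (8.83 ± 0.306), *Egfr* (6.61 ± 1.94) and *Erbb3* (5.56 ± 0.558), and its range did not overlap that of *Met*. *Btc* (3.67 ± 0.666) and *Hgf* (3.35 ± 0.5) followed with overlapping ranges. In *Atg7*-KO;*p62T352A* *Egfr* (18.8 ± 4.8) was again first, followed by *Met* (6.24 ± 0.757), *Erbb3* (2 ± 0.854) and *Tgfa* (1.64 ± 0.567), the last pair with overlapping ranges, and *Hgf* (0.327 ± 0.135) lay among *Hbegf*, *Erbb2* and *Btc*. *Ereg* and *Areg* were the lowest in every genotype. With the joined exons of each gene as its length, *Tgfa* was still first in *Atg7*-KO, but with a mean of 8.78 CPM per kb beside 7.83 for *Met*. The separation of these ranges in *Atg7*-KO thus depends on the length used.

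Among 12820 genes with a mean of at least 1 CPM, those whose log2 CPM followed *Egfr* most closely across the 9 mice were *C8b* (Pearson r = 0.991), *Serpina3k* (0.980) and *Adh4* (0.980). *C8b* encodes a complement component, *Serpina3k* a serpin and *Adh4* an alcohol dehydrogenase, all made by the liver. *C8b* was at a mean of 237, 49.4 and 169 CPM in cont., *Atg7*-KO and *Atg7*-KO;*p62T352A*, and *Egfr* at 243, 67.4 and 192. For *Met* they were *Sft2d2* (0.973), *Trmt2b* (0.967) and *Tango6* (0.962). These correlations describe 9 mice of 3 genotypes, in which genotype and library are shared by all genes, and carry no test.

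Other genes of the pathways were taken from a list of 128, of which 126 were in the table and 119 were tested. In *Atg7*-KO against cont. 42 were higher by the same rule and 19 lower (51.3%), in *Atg7*-KO;*p62T352A* against *Atg7*-KO 21 higher and 42 lower (52.9%) and in *Atg7*-KO;*p62T352A* against cont. 11 higher and 6 lower (14.3%), beside 43.7%, 51.0% and 11.6% of all genes. With upper-quartile scaling the second comparison gave 15 higher and 50 lower. Medians of log2 fold change over these genes were 0.33, -0.36 and -0.04. The 42 rises include *Nrg1*, *Adam12*, *Serpina5*, *Fosl1* and *Egr3*, which reached the count filter only because of their *Atg7*-KO levels. The same genes and *Dusp5*, which reached it in the same way, are among the 42 falls of the second comparison. *Egf*, among the 19 falls of the first, reached it only through the other genotypes. These totals, shares and medians are therefore descriptions.

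Of the other ligands, *Egf* and *Mst1* were lower in *Atg7*-KO than in the other genotypes. *Egf*, whose product is another EGFR ligand, was 1.37 ± 0.702 CPM (SD, n = 3) for cont., 0.203 ± 0.0836 for *Atg7*-KO and 1.08 ± 0.584 for *Atg7*-KO;*p62T352A*. *Egf* passed the count filter only through mice of the groups where it was higher, and no *Atg7*-KO mouse reached it, so these levels are a description. *Mst1*, which encodes the HGF-related macrophage-stimulating protein made by hepatocytes, fell from 315 ± 146 CPM (SD) to 90.4 ± 2.83 (-1.80 ± 0.33 (SE), adjusted p = 0.00204) and was 270 ± 24.7 in *Atg7*-KO;*p62T352A*. *Nrg1*, which encodes neuregulin 1, a ligand of ERBB3, was at 0 to 0.22 CPM for cont., 2.51 to 3.9 for *Atg7*-KO and 0.21 to 0.714 for *Atg7*-KO;*p62T352A*. Like *Ereg*, *Nrg1* passed the count filter only through the *Atg7*-KO mice, so these levels are a description. *Nrg4* was called in none of the comparisons, but was lower in *Atg7*-KO without cont. mouse 1 (-0.88, adjusted p = 0.0174) or without all mice numbered 1 (-0.67, adjusted p = 0.0133). *Epgn*, *Nrg2* and *Nrg3* were not tested and held at most 2, 4 and 0 counts in any mouse, and *Erbb4* and the *Mst1* receptor gene *Mst1r* at most 14 and 12.

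Among other receptors, *Cd44*, a surface protein whose variants assist MET, rose from 8.36 ± 0.662 CPM (SD, n = 3) in cont. to 44.4 ± 2.25 in *Atg7*-KO (log2 fold change 2.40 ± 0.23 (SE), adjusted p = 7e-05) and was 9.58 ± 3.14 in *Atg7*-KO;*p62T352A*. *Itgb4* also rose in *Atg7*-KO (2.54 ± 0.50, adjusted p = 0.00289) and *Nrp1* fell (-0.94 ± 0.17, adjusted p = 0.00185), while *Plxnb1* and *Sdc1* were not called although without cont. mouse 1 *Plxnb1* was lower in *Atg7*-KO (-1.04, adjusted p = 0.00324). *Itgb4* was lower in *Atg7*-KO;*p62T352A* than in *Atg7*-KO (adjusted p = 0.0371), a call that was lost without any 1 of the *Atg7*-KO mice or without *Atg7*-KO;*p62T352A* mouse 1 or 2 (adjusted p up to 0.121).

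Genes of ligand processing release EGFR ligands, cleave the HGF precursor or inhibit these steps. Of 20 tested, 9 were called higher and 4 lower than cont. in *Atg7*-KO, and 6 higher and 9 lower in *Atg7*-KO;*p62T352A* than in *Atg7*-KO. These are 65% and 75% of the list, against 43.7% and 51.0% of all genes, and *Adam12* and *Serpina5* passed the count filter only through the *Atg7*-KO mice. The 4 that fell were *Hgfac*, *Hpn*, *Klkb1* and *Plg*, which encode proteases made by hepatocytes. *Hgfac*, the HGF activator gene, was 373 ± 165 CPM (SD, n = 3) for cont., 116 ± 2.62 for *Atg7*-KO and 359 ± 31.5 for *Atg7*-KO;*p62T352A* (log2 fold change -1.68 ± 0.32 (SE) for the first pair, adjusted p = 0.00262). *Klkb1* fell by 1.97 on the log2 scale (adjusted p = 3.07e-05). *St14*, the gene of the epithelial protease matriptase, rose from 0.717 ± 0.259 to 15 ± 2.3 CPM (SD; log2 fold change 4.39 ± 0.30 (SE), adjusted p = 1.51e-05) and was still called higher than cont. in *Atg7*-KO;*p62T352A* at 2.14 ± 0.382 CPM (adjusted p = 0.0135), a call lost without *Atg7*-KO;*p62T352A* mouse 3 (0.0551). *Plat*, the gene of tissue plasminogen activator, rose from 0.553 ± 0.283 to 19 ± 0.905 CPM (5.16 ± 0.33 (SE), adjusted p = 1.37e-05) and was 0.986 ± 0.262 CPM in *Atg7*-KO;*p62T352A*.

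In signal relay, the adaptors and kinases below the receptors, 11 of 34 genes were called for *Atg7*-KO against cont., 6 higher and 5 lower, which is 32.4% against 43.7% of all genes. *Gab2*, a docking protein, rose from 2.1 ± 0.968 to 12.2 ± 0.274 CPM (SD, n = 3; log2 fold change 2.51 ± 0.33 (SE), adjusted p = 0.00037) and *Src*, a kinase, from 3.17 ± 0.8 to 19.5 ± 1.36 CPM (2.64 ± 0.22 (SE), adjusted p = 3.94e-05), and in *Atg7*-KO;*p62T352A* they were at 1.73 ± 0.401 and 3.82 ± 0.474 CPM. *Araf* fell in *Atg7*-KO (-0.97 ± 0.23, adjusted p = 0.00699). *Plcg1*, the gene of a phospholipase bound by EGFR and MET, had the order of *Erbb3*, with 41.4 ± 11.9 CPM (SD) for cont., 22.6 ± 1.26 for *Atg7*-KO and 10.5 ± 3.84 for *Atg7*-KO;*p62T352A*. Its difference between *Atg7*-KO;*p62T352A* and cont. was called (-1.97 ± 0.30 (SE), adjusted p = 0.00742), as was that between *Atg7*-KO;*p62T352A* and *Atg7*-KO (-1.10 ± 0.29, adjusted p = 0.0103). Its fall in *Atg7*-KO against cont. (-0.87 ± 0.29, adjusted p = 0.032) was lost without cont. mouse 2 (0.0633) or 3 (0.0914) or without *Atg7*-KO mouse 1 (0.0818), 2 (0.0769) or 3 (0.099).

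Of 31 tested brakes on the receptors, 12 were called higher and 3 lower than cont. in *Atg7*-KO, and 3 higher and 13 lower in *Atg7*-KO;*p62T352A* than in *Atg7*-KO. The shares called, 48.4% and 51.6%, were close to the 43.7% and 51.0% of all genes, and *Dusp5* passed the count filter only through the *Atg7*-KO mice. *Errfi1*, an inhibitor of EGFR that is abundant in liver, fell from 1542 ± 201 to 422 ± 34.1 CPM (SD, n = 3; log2 fold change -1.87 ± 0.19 (SE), adjusted p = 8.9e-05) and was 959 ± 6.06 CPM in *Atg7*-KO;*p62T352A*, lower than cont. (-0.69 ± 0.18, adjusted p = 0.0387). *Dusp4*, an ERK phosphatase that ERK signalling induces, rose from 1.61 ± 0.938 to 12.5 ± 1.32 CPM (2.89 ± 0.34 (SE), adjusted p = 0.000217) and was 0.506 ± 0.052 CPM in *Atg7*-KO;*p62T352A*, lower than cont. (-1.72 ± 0.41, adjusted p = 0.0278). Both of these differences from cont. were lost without any 1 of the *Atg7*-KO or *Atg7*-KO;*p62T352A* mice (adjusted p up to 0.121 for *Errfi1* and 0.0984 for *Dusp4*), and without cont. mouse 3 for *Errfi1* (0.0748) and cont. mouse 1 for *Dusp4* (0.0552). They were lost also without all mice numbered 1 (0.0618 for *Errfi1* and 0.0968 for *Dusp4*). *Sh3kbp1* rose in *Atg7*-KO (1.78 ± 0.28, adjusted p = 0.001). *Spry4* fell (-1.59 ± 0.55, adjusted p = 0.0379), a call lost without cont. mouse 2 (0.0584) or 3 (0.153), without *Atg7*-KO mouse 1 (0.101), 2 (0.108) or 3 (0.0788) and without *Atg7*-KO;*p62T352A* mouse 3 (0.0505).

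Of 25 tested response genes, which growth factor signals are known to induce, 12 were called higher and 4 lower than cont. in *Atg7*-KO, and 2 higher and 10 lower in *Atg7*-KO;*p62T352A* than in *Atg7*-KO. These are 64% and 48% of the list, against 43.7% and 51.0% of all genes, and *Fosl1* and *Egr3*, both called higher in *Atg7*-KO, passed the count filter only through the *Atg7*-KO mice. *Plaur*, the urokinase receptor gene, rose from 0.809 ± 0.453 to 8.78 ± 1.78 CPM (SD, n = 3; log2 fold change 3.53 ± 0.51 (SE), adjusted p = 0.000576) and was 1.08 ± 0.567 CPM in *Atg7*-KO;*p62T352A*, and *Hk2*, a hexokinase gene, rose from 2.54 ± 1.08 to 18.2 ± 3.16 CPM (2.87 ± 0.36 (SE), adjusted p = 0.000269) and was 5.61 ± 1.58. The immediate early genes *Fosb* and *Ier2* were called lower in *Atg7*-KO, but their levels in cont. ran from 0.0573 to 113 CPM and from 18.1 to 580 CPM, and cont. mouse 3 decided the difference. Without it the log2 fold change was 0.69 for *Fosb* (adjusted p = 0.666) and -0.97 for *Ier2* (0.162), in place of -5.86 and -3.85, and both calls were lost also without any 1 of the *Atg7*-KO mice (adjusted p up to 0.1 and 0.0708).

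**Figure D5:**
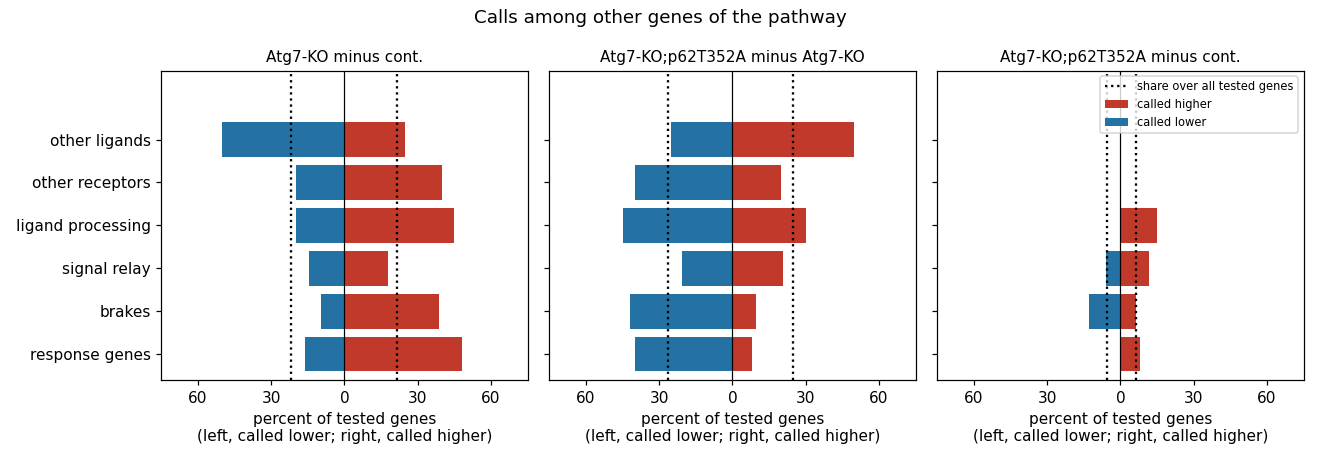
Percent of the tested genes of 6 other lists of the pathway (rows) called lower (left of 0) and higher (right of 0) in the 3 comparisons (panels), with dotted lines at the shares over all 13922 genes. Response genes and brakes were called higher more often than lower in the first panel and lower more often than higher in the second. In the third, 19.4% of brakes, 17.6% of signal relay and 15% of ligand processing genes were called, beside 11.6% of all genes, and 8% or fewer in the other lists.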

How the data were processed

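Poly(A)-selected RNA of whole liver was sequenced as single-end reads of 75 bases. The authors deposited expected counts per gene, which per the labels and the study's methods came from Trim Galore, STAR and RSEM on mm10 (GRCm38) with GENCODE vM21; 8.34% of the deposited expected counts were not whole and all were rounded. Mouse numbers name replicates, and p-values measure the spread between these mice. The 9 mice of 3 genotypes were fitted together with edgeR 4.0.16 (R 4.3.3): genes with low counts were removed with filterByExpr (13922 remained), libraries were scaled by TMM, and glmQLFit and glmQLFTest gave log2 fold changes, standard errors and p-values adjusted by Benjamini-Hochberg over all genes tested. A gene was called at an adjusted p under 0.05 and a fold change over 1.5. On data simulated for Atg7-KO against cont. (13734 genes tested), 97.5% of 200 genes changed by 4-fold were called, and 12 of 13534 unchanged genes. The simulation gave every gene the same spread (dispersion 0.08) and changed no gene with low counts. Its rates do not cover smaller changes, wider spread or genes such as Ereg. The study used DESeq2, here an alternative (1.42.0). Levels per kb used the longest GENCODE transcript. Members, lists and tests were chosen with earlier results of these data known. Pathway genes were named by rule: up to 2 of the largest rises and falls per list in Atg7-KO against cont. with a mean of at least 1 CPM, and all tested genes of the short lists of ligands and receptors. Lists for hepatocytes, cholangiocytes, stellate cells, endothelial cells, macrophages, lymphocytes and neutrophils were summed; lymphocyte markers summed to 9.51 to 14, 19.8 to 25.5 and 9.2 to 15 CPM and neutrophil markers to 2.09 to 2.84, 4.89 to 10.3 and 3.43 to 3.99 CPM in cont., Atg7-KO and Atg7-KO;p62T352A. Alternatives were other scalings, filters and tests, a replicate block, and leaving out mice.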

Additional observations from a re-analysis of the deposited data

How the results depend on the processing

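Each result was recomputed under 20 alternatives, 9 of which left out 1 mouse; an arm of 2 mice then shared its spread with the others. Of 534 recomputed member values, 492 kept direction and call, 23 lost a call, 2 gained one and 17 changed sign, all of the last in differences that were not called. Testing against a fold change of 1.5 (glmTreat) gave 38 of the listed pathway genes and 3855 of all genes for Atg7-KO against cont., 4718 of all genes for Atg7-KO;p62T352A against Atg7-KO, and 3 and 253 for Atg7-KO;p62T352A against cont. Under it Erbb3 in Atg7-KO against cont. was not called (adjusted p = 0.0586). The mouse number as a replicate block gave 7, 7 and 2 members called, as without it, and 10 pathway genes and 988 of all genes for Atg7-KO;p62T352A against cont. Deviations of same-numbered mice correlated by 0.223, -0.0303 and 0.247 on average for numbers 1, 2 and 3, the lowest pair being -0.202, so the numbers were not taken as a pairing. Without the mice numbered 1, 2975 genes were called in that comparison. Leaving out 1 mouse gave 4 to 7, 5 to 7 and 2 to 3 members, 47 to 77, 54 to 71 and 4 to 25 pathway genes, and 4587 to 7960, 5652 to 8142 and 435 to 3245 of all genes in the 3 comparisons, with the lowest pathway and all-gene counts of the third without Atg7-KO;p62T352A mouse 3.

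Signs turned as follows, in log2 fold change. Without the mice numbered 1, Met (0.32) and Sdc1 (0.23) did in Atg7-KO against cont., Nrg4 (-0.39) did in Atg7-KO;p62T352A against Atg7-KO, and Egfr (0.30), Btc (0.30) and Erbb2 (-0.11) did in Atg7-KO;p62T352A against cont. Erbb2 also turned there with DESeq2 size factors (-0.02) and DESeq2 (-0.01), and Nrg4 in its comparison with upper-quartile scaling (-0.09) and a minimum of 10 counts (-0.03). Leaving out 1 mouse gave -0.38 to 0.31 for Met, -0.47 to 0.17 for Sdc1 and -6.46 to 0.69 for Fosb in the first comparison, -0.17 to 0.23 for Nrg4 and -0.21 to 0.86 for Spry4 in the second, and -0.72 to 0.30 for Egfr, -0.29 to 0.46 for Erbb2, -0.17 to 0.46 for Ereg, -0.29 to 0.64 for Hbegf and -0.66 to 0.45 for Btc in the third. Upper-quartile scaling moved the median of all genes by 0.113 in the first comparison and by -0.137 in the second, and no member's call changed under it. A minimum of 10 counts in every mouse removed Btc and Ereg. With joined exons as gene length, Hbegf and Erbb2 exchanged places in cont. and Atg7-KO;p62T352A, as did Hgf and Btc in the latter, and a prior count of 0.5 named the same genes as closest to Egfr and Met. Depth limits Areg, Ereg and Erbb2. The cause of these changes was not tested.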
